A study of Mus musculus with 4 samples.

Results

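Vgll3 and 8 factors that act with it or on the same transcription complex were followed across the cells of a mouse tumour: the cofactors Vgll3, Vgll4, Yap1 and Wwtr1 (TAZ), the DNA-binding partners Tead1, Tead2 and Tead4, and the pathway regulators Amotl2 and Ajuba. They are 9 of the 32285 genes in the count matrices, taken by symbol. Vgll3 was chosen by its nanocapsule-to-control difference, which had the fifth smallest p-value of the 16937 genes tested in the summed cells, and the others because they belong to its pathway, so the differences between the groups are given for all 9 as a description, with no test. Single-cell RNA was counted in 4 libraries, 2 labelled Control (replicates 1 and 2) and 2 labelled Nanocapsule treated (replicates 1 and 2), from tumours of C57Bl6 mice aged 6 to 8 weeks. The labels call the cells cancer cells and give neither the tumour line, the content and dose of the capsules, nor whether each library is 1 animal. The spread between libraries may therefore be technical.

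TEAD proteins bind DNA but activate poorly alone, and YAP and TAZ are the coactivators that dock on them. The Hippo kinases LATS1 and LATS2 phosphorylate YAP and TAZ and keep them out of the nucleus, and angiomotins and Ajuba-family LIM proteins act on that step, the former by holding YAP and TAZ and the latter by restraining LATS. The Vestigial-like proteins, including VGLL3 and VGLL4, bind the same face of TEAD, where VGLL4 is known to compete with YAP. VGLL3 is known as a TEAD cofactor of mesenchymal cells, in which TEAD output includes the matricellular genes Ccn1 and Ccn2.

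The 250 bases upstream of the start of 4 members are shown because TEAD recognises the letters GGAATG, printed in capitals here as that run or as its reverse complement. The sequences are from RefSeq on GRCm38.p6, 5′ to 3′ on the strand of the gene, at chr16:65814939-65815188 (plus strand) for Vgll3, chr9:8004597-8004846 (minus) for Yap1, chr3:57575911-57576160 (minus) for Wwtr1 and chr14:54577662-54577911 (minus) for Ajuba.
Vgll3: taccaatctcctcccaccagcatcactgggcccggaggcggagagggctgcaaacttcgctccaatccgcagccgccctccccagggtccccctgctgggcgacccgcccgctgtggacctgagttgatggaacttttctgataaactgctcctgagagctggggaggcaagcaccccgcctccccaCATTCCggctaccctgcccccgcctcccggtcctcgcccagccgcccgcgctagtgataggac
Yap1: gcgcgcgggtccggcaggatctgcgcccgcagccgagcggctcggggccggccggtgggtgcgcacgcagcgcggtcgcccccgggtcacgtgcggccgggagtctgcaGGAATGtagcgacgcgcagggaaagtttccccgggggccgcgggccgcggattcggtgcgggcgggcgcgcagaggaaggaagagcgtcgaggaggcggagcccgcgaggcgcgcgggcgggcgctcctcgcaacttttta
Wwtr1: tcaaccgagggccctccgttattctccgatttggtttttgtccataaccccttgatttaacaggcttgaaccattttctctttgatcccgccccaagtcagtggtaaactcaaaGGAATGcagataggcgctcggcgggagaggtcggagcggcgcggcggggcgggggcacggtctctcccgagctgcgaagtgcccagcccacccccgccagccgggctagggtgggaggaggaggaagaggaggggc
Ajuba: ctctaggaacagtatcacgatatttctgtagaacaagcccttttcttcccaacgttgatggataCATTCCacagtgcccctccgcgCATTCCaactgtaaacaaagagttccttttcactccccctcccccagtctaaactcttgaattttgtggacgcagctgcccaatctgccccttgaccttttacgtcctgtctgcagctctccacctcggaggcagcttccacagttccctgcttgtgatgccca
The match begins 63 bases before the start in Vgll3, 141 in Yap1 and 136 in Wwtr1, and Ajuba has 2 matches, at 186 and 164. Of the 7 members with a promoter in the table, 6 hold the letters on either strand within these 250 bases, Tead2 being the exception, against 12.6% of all 32851 windows of that length. A match of 6 letters is a description of the sequence, not a binding site. The core letters recognised by hypoxia-inducible factors (ACGTG or GCGTG, either strand; overlapping matches counted) are not in the Vgll3 window, occur 3 times in that of Yap1 and 7 times in that of Vgll4, and stand in 38.6% of all windows.

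The libraries held 98943390 to 140491491 UMIs (unique molecules counted) and 1076 to 3255 called cells each, 7044 in all, with a median of 38034 to 85275 UMIs per cell. Control 1 had the most cells and the fewest UMIs per cell. Between 0 and 13 cell barcodes were shared by any pair of libraries. Cells with the pigment-cell genes of the marker list, called melanocytic tumour-like, made up 899 to 2944 cells per library. In these cells the hypoxia-marker list summed to 638 and 1195 CPM (UMIs in every 1000000 UMIs of the summed cells) in the controls and 1079 and 1278 in the nanocapsule libraries. The immune marker list summed to 17.6 and 19.1 in the controls against 18.7 and 61.3, Nanocapsule 2 standing apart. This list includes Cd74, also a leading gene of the interferon-like tumour cluster described below, which has 124 of its 182 cells in Nanocapsule 2. The macrophage list summed to 605 and 544 in Control 1 and 2 and to 575 and 507 in Nanocapsule 1 and 2. The part of Cd74 in the immune sum was not tested.

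Of the 4 cofactors, Vgll3 had the largest difference between the groups in the tumour-like cells. Vgll3 stood at 35.7 and 33.2 CPM (normalised by TMM, edgeR's scaling between libraries) in Control 1 and 2, and at 54.8 and 56.2 in Nanocapsule 1 and 2. The groups did not overlap, and the gap between them was larger than the gap within either. The log2 fold was 0.69 ± 0.07 (SE, n = 2 against 2), or 1.61-fold, and the values behind it rest on 2754 to 4715 UMIs per library. This is the contrast that chose the gene. Vgll4, the cofactor that competes with YAP, lay at 93.8 and 90.1 in the controls and 85.0 and 83.4 in the nanocapsule libraries, a small difference in the other direction (log2 fold -0.13 ± 0.07). Its groups did not overlap either.

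Yap1 and Wwtr1, the Hippo-controlled coactivators, kept overlapping levels. Yap1 was 45.4 and 48.7 CPM in the controls and 46.3 and 47.6 with nanocapsules, a log2 fold of -0.0019 ± 0.0692. Wwtr1 was 78.5 and 58.1 against 78.0 and 70.2 (0.12 ± 0.15), with Control 2 as the low library. Vgll3 thus had the lowest level of the 4 cofactors in the controls, and with nanocapsules it lay above Yap1 in both libraries. UMIs are counted at the 3′ end of a transcript, so gene length does not enter these levels, though capture can differ from gene to gene.

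Among the DNA-binding partners Tead1 was the most abundant. It stood at 70.0 and 73.5 CPM in the controls and 73.3 and 77.2 in the nanocapsule libraries, overlapping ranges with a log2 fold of 0.07 ± 0.07. Tead2 was 40.9 and 38.9 against 38.5 and 34.6, lower without overlap, though Control 2 and Nanocapsule 1 nearly met (-0.13 ± 0.08). With each library weighted to the same shares of the tumour clusters described below, its groups overlapped, at 39.3 and 38.9 against 39.6 and 37.5. Tead4 was scarce, at 6.05 and 5.82 against 6.08 and 5.41 (-0.05 ± 0.12). Tead3, the remaining family member, was scarcer still, at 2.51 and 1.94 against 2.50 and 2.55, with an edgeR adjusted p of 0.862. Vgll1 and Vgll2 had 0 UMIs in the tumour-like cells of all 4 libraries.

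The 2 regulators had overlapping groups. Amotl2, an angiomotin that holds YAP and TAZ in the cytoplasm, was 26.4 and 30.5 CPM in the controls and 27.9 and 32.7 with nanocapsules (log2 fold 0.09 ± 0.11). Ajuba, a LIM protein that restrains LATS, was 9.20 and 9.57 against 9.50 and 11.3 (0.15 ± 0.12). In all, 1 of the 9 members was higher without overlap, 2 were lower and 6 overlapped. Over all 16121 genes tested in these cells 38% did not overlap, 19.3% being higher and 18.7% lower, and nothing is read from the members' count, which lies near that share. The median log2 fold of the 9 was 0.07, and that of all genes 0.0021.

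**Figure D1:**
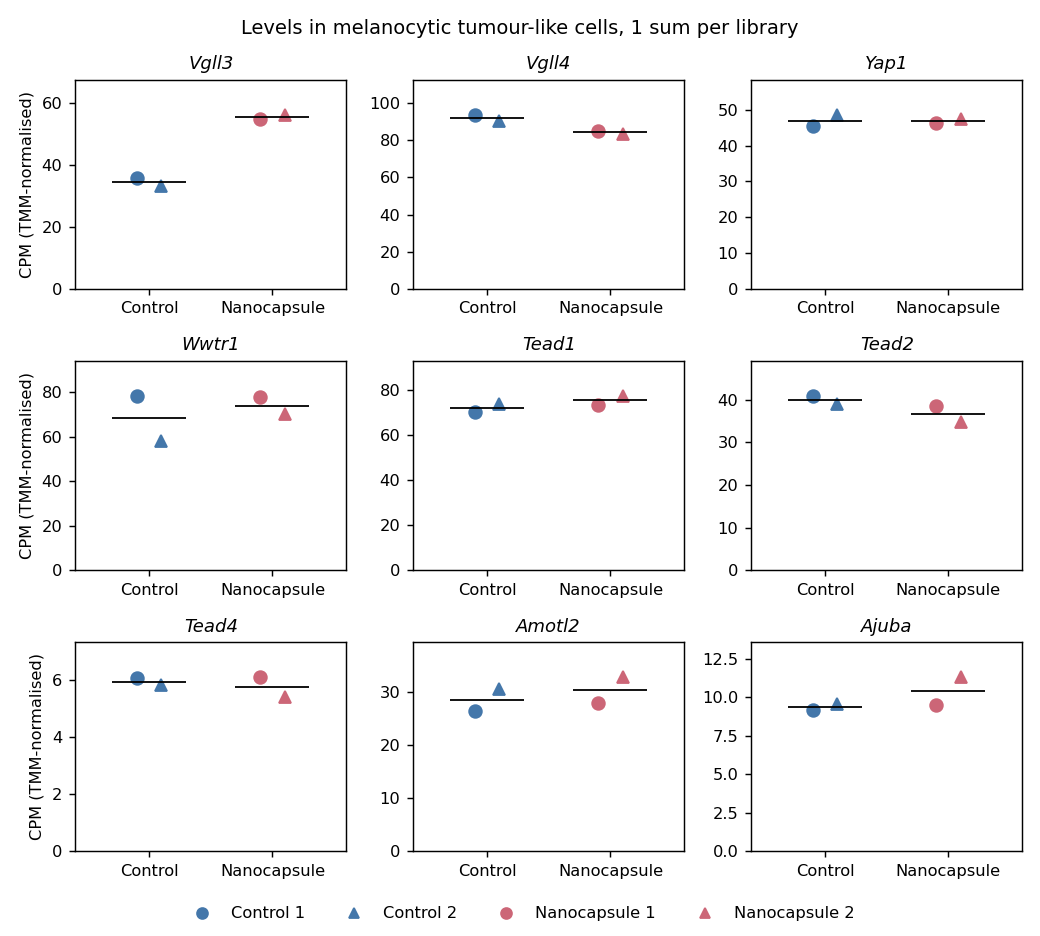
Level of each of the 9 genes in melanocytic tumour-like cells, in CPM after TMM normalisation (vertical axes from 0), with 1 point per library and a line at the mean of each group. Vgll3 moves from 35.7 and 33.2 to 54.8 and 56.2, while the groups of Yap1, Wwtr1, Tead1, Tead4, Amotl2 and Ajuba overlap.

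The same Vgll3 counts can be read as a share of cells, which adds no independent evidence. Deeper cells show more genes, so each tumour-like cell was thinned at random to 8000 UMIs. At that depth 19.2% (95% exact binomial interval 17.8 to 20.7) of Control 1 cells, 23.4% of Control 2, 26.5% of Nanocapsule 1 and 30.03% of Nanocapsule 2 cells held a Vgll3 UMI. Both nanocapsule libraries were above both controls. Without thinning the shares were 52.1, 74.0, 71.8 and 84.5%, where Control 2 passed Nanocapsule 1 and the order followed the median UMIs per tumour-like cell of 38311, 82589, 61262 and 89857.

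Cells with a Vgll3 UMI held most of the other members somewhat more often. At 8000 UMIs, Tead1 was found in 44.6% of the Vgll3-positive and 38.8% of the Vgll3-negative cells of Control 1. The same pair of shares was 52.2 and 40.2% for Control 2, 48.5 and 39.1% for Nanocapsule 1 and 50.7 and 38.8% for Nanocapsule 2. The positive cells were above the negative ones in all 4 libraries. Wwtr1 behaved alike, with 53.3 against 41.3% in Control 1 and 45.9 against 37.8% in Nanocapsule 2. Tead2 did not: the shares were 24.8 against 27.3% for Control 1, 28.1 against 28.2% for Control 2, 21.6 against 27.6% for Nanocapsule 1 and 23.0 against 22.6% for Nanocapsule 2. Counted together, a UMI of Tead1, Tead2 or Tead4 was present in 61.2 to 66.1% of Vgll3-positive cells and in 53.9 to 58.0% of the others. At the same depth Yap1, Vgll4, Tead4 and Ajuba were also more frequent in the positive cells of all 4 libraries. For Ajuba the shares were 9.20 against 6.31% in Control 1. Amotl2 was not, with 17.7 against 18.6% in Control 1. Other genes were not counted in this way, and the part of cell states in these shares was not tested. At 16000 UMIs the positive cells were still above the negative ones in all 4 libraries for Tead1 and Wwtr1, but the gap was smaller in places, with 69.7 against 66.5% for Tead1 in Control 2 and 61.2 against 59.9% for Wwtr1 in Nanocapsule 2.

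Vgll3 was uneven among the 12 clusters of tumour-like cells, and highest in the 2 led by hypoxia genes. Levels from here on are plain CPM within a cluster or class, as mean ± SD over the 4 libraries. It reached 109 ± 26 in cluster 9 and 95.4 ± 16.6 in cluster 7, both called hypoxic-like. A small cluster led by the noncoding RNAs Gm26917 and Neat1 followed at 81.4 ± 40.7, with a spread that overlaps the hypoxic-like ones. That mean includes the highest value of the cluster, from 9 cells of Nanocapsule 2. The interferon-like cluster had 41.9 ± 11.9, the mitotic-like one 34.7 ± 4.7, the amino-acid-stress-like one 32.7 ± 6.3 and the S-phase-like one 28.3 ± 7.3, neighbours that do not differ beyond their spread. Vgll3 was lowest, at 17.8 ± 4.5, in cluster 0, led by Coq8a and Mxd4. Vgll3 was among the 2000 variable genes used for clustering and the other members were not, so its order over clusters is a description.

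The partners did not share that order. Wwtr1 was high in the hypoxic-like clusters (126 ± 10 and 117 ± 6) but as high in the amino-acid-stress-like one (120 ± 13), where Vgll3 was low. Tead2 ran the other way. It was 21.8 ± 1.6 and 26.7 ± 1.3 in the hypoxic-like clusters and 50.1 ± 3.5 in the S-phase-like one. Tead4 was highest outside the Neat1-led cluster in cluster 8, led by S100a6 and Lgals3, and in hypoxic-like cluster 9, at 14.7 ± 2.3 and 13.1 ± 1.6, against 3.7 to 7.8 in the other 9 clusters. Tead1 was 55.4 to 84.4 in the clusters other than the Neat1-led one, where it was 290 ± 126. Yap1 spanned 31.1 to 55.2 and Vgll4 69.6 to 118 outside that same cluster.

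**Figure D2:**
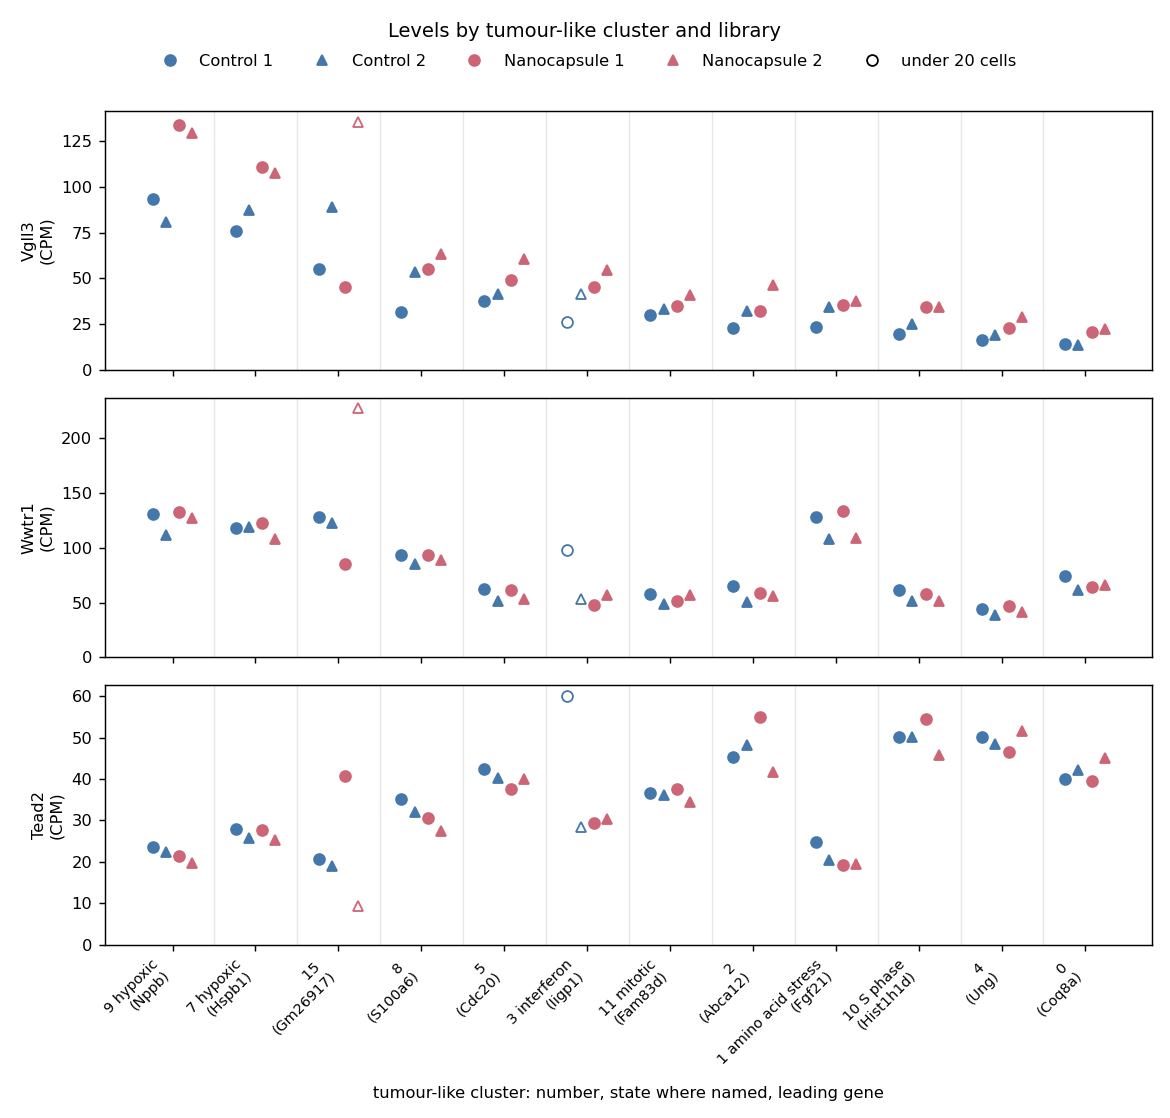
Vgll3, Wwtr1 and Tead2 in each tumour-like cluster and library, in CPM of the cluster (vertical axes from 0), clusters ordered by the mean of Vgll3 and open symbols for fewer than 20 cells. Vgll3 falls from 109 in cluster 9 to 17.8 in cluster 0, Wwtr1 is also high in the amino-acid-stress-like cluster, and Tead2 is low where Vgll3 is high.

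The contrast that chose Vgll3 can be split by cluster, as a description of the same cells and libraries. In hypoxic-like cluster 9 it stood at 93.4 and 80.6 CPM in the controls and at 134 and 129 with nanocapsules. In cluster 0, where it was lowest, the values were 14.2 and 13.7 against 20.7 and 22.5. Of the 10 clusters with at least 20 cells in every library, the nanocapsule mean was higher in 10 and both nanocapsule libraries exceeded both controls in 9. The exception was cluster 2, led by Abca12 and Fasn, with 22.8 and 32.0 against 31.9 and 46.5. Among 9840 genes of sufficient level, 32 (0.325%) were higher without overlap in as many clusters, a share from which nothing is read for a gene chosen by this contrast. The clusters share their libraries and so are not replicates of each other. The Neat1-led cluster was left out because Nanocapsule 2 had 9 cells there. Vgll3 in it was 55.2 and 89.2 CPM in the controls and 45.5 in Nanocapsule 1, below both. From its 9 cells the Nanocapsule 2 value lay above both controls, so the nanocapsule libraries disagreed. The interferon-like cluster, also left out, had 12 and 11 control cells. Tead1 was higher without overlap in 5 of the 10, a count that 9.16% of genes reached, and Vgll4 was lower in 5 (10.1% of genes in at least as many), Tead2 in 4 and Tead4 in 4 (16.9% each).

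The makeup of the tumour-like cells differed between libraries. Hypoxic-like cells were 18.5% of them for Control 1, 7.72% for Control 2, 24.8% for Nanocapsule 1 and 19.5% for Nanocapsule 2. Interferon-like cells were 0.408, 1.15, 2.54 and 13.8%. With every library weighted to the same shares of the 10 clusters, Vgll3 was 34.6 and 37.9 CPM in the controls and 49.1 and 53.4 with nanocapsules, a log2 ratio of 0.50 against 0.72 for the same cells unweighted. The groups still did not overlap, and with the hypoxic-like clusters left out of the sums the log2 fold was 0.47 ± 0.15 (SE).

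The 5 genes whose levels followed Vgll3 most closely over the clusters were not Hippo factors. Over the 45 cluster-by-library sums with at least 20 cells, and among 9929 genes, the highest Pearson r of log2 values was with Tor1aip2 (0.89), followed by Tfap2a (0.88), a transcription factor of the neural crest and melanocytes, Actr3 (0.87), a subunit of the actin-nucleating Arp2/3 complex, Lims1 (0.85), an adaptor of integrin adhesions, and Picalm (0.85), a clathrin assembly protein. Crim1, a gene of the YAP, TAZ and TEAD target list described below, had rank 7 (0.85). Its r outside the hypoxic-like clusters was 0.67. The sums share libraries, depth and cell states, and no p-value is attached to these correlations. Among the members, r with Vgll3 was 0.62 for Wwtr1, 0.61 for Tead4, 0.45 for Tead1, 0.40 for Ajuba, 0.39 for Yap1, 0.19 for Amotl2, 0.16 for Vgll4 and -0.66 for Tead2. Outside the hypoxic-like clusters, over 37 sums, it was 0.62 for Tead1, 0.60 for Amotl2, 0.58 for Vgll4 and 0.56 for Yap1. It was 0.54 for Tead4, 0.33 for Wwtr1, 0.10 for Ajuba and -0.50 for Tead2. These 37 sums include the Neat1-led cluster, where Vgll3 and Tead1 were both high, and the part of that cluster in these values was not tested. Tead2 was the member of opposite pattern in both sets.

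The matricellular TEAD targets stood beside Vgll3 in the hypoxic-like cells. Ccn1, encoding CYR61, was 496 ± 58 CPM in cluster 9 and 342 ± 32 in cluster 7, against 51.6 to 271 in the others. Ccn2, encoding CTGF, was 39.2 ± 15.6 in cluster 9 and 17.5 ± 6.1 in cluster 7. Over the 45 sums r with Vgll3 was 0.76 for Ccn1 and 0.78 for Ccn2, and outside the hypoxic-like clusters 0.42 and 0.49. Much of both values thus lies between the hypoxic-like clusters and the rest.

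**Figure D3:**
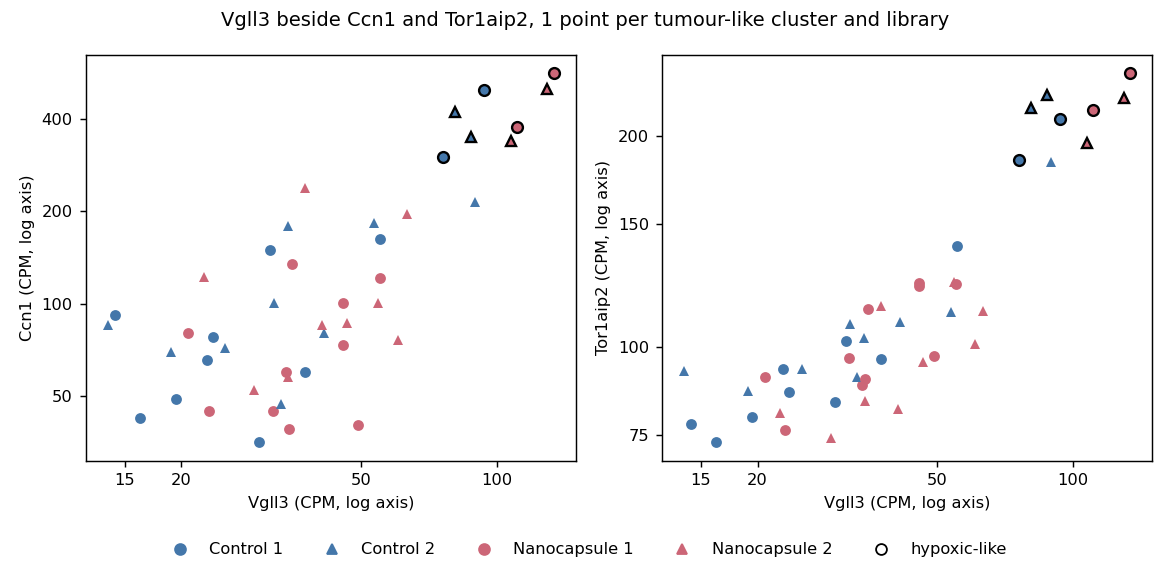
Ccn1 (left) and Tor1aip2 (right) against Vgll3, all in CPM on log axes, 1 point for each of the 45 tumour-like cluster and library sums, outlined where the cluster is hypoxic-like. The 8 hypoxic-like points lie at the upper right, with r of 0.76 for Ccn1 and 0.89 for Tor1aip2 over all points.

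The target list of YAP, TAZ and TEAD held 22 genes, of which 18 were tested in the tumour-like cells. None of them passed edgeR's quasi-likelihood test, fitted without a replicate term, after adjustment (Benjamini-Hochberg, 0.05), as none of the 16121 genes did (smallest adjusted p 0.0592). At an unadjusted p under 0.05 there were 7 of the 18, against 7.2% of all genes. DESeq2 called 92 genes, 3 of them targets (F3, Ccn1 and Axl), and edgeR without Control 1 called 69, with F3 and Ccn1 among them. Both nanocapsule libraries exceeded both controls for 7 of the 18 targets and fell below for 3, against 19.3% and 18.7% of all genes. The median log2 fold of the targets was 0.19. Ccn1 was 130 and 104 CPM in the controls and 164 and 160 with nanocapsules (log2 fold 0.47 ± 0.12, edgeR adjusted p = 0.680). Ccn2 was 6.93 and 5.41 against 15.3 and 8.70 (0.96 ± 0.29, edgeR adjusted p = 0.680), with Nanocapsule 1 as the high library.

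Another 4 targets with both nanocapsule libraries on top were picked out once their values were known. F3, tissue factor, was 46.7 and 39.2 against 61.4 and 58.0. Crim1, a transmembrane protein that binds bone morphogenetic proteins, was 18.4 and 18.6 against 24.3 and 22.6. Axl, a receptor tyrosine kinase, had the largest log2 fold of those with no overlap, at 1.36 ± 0.27, but from 0.845 and 0.856 to 1.67 and 2.68 CPM. Myof, encoding a membrane-repair ferlin, was 9.58 and 10.9 against 12.0 and 13.3. The other abundant targets did not share that order. Cryab, a small heat-shock protein, lay the other way, at 244 and 271 against 222 and 224, as did Ptpn14, a phosphatase that binds YAP, at 62.0 and 68.6 against 60.9 and 59.8. Asap1, a regulator of Arf GTPases, overlapped at 110 and 116 against 117 and 112. Ankrd1, a classical YAP target, had 0 to 3 UMIs per library and was not tested.

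With cluster makeup held equal, all 6 of these targets had smaller differences, Axl only slightly. In the 10 clusters with enough cells, the log2 ratio went from 0.53 to 0.15 for Ccn1, from 1.02 to 0.49 for Ccn2, from 0.51 to 0.15 for F3, from 0.39 to 0.10 for Crim1, from 0.25 to 0.12 for Myof and from 0.79 to 0.77 for Axl. The Axl fold of 1.36 over all tumour-like cells also holds the interferon-like cluster, which has too few control cells for these 10 and where Axl was 8.02 and 4.35 CPM in the controls and 7.01 and 10.8 with nanocapsules. At equal makeup the groups overlapped for Ccn1 (125 and 137 CPM in the controls, 135 and 155 with nanocapsules), Crim1 and Myof. They did not for Ccn2 (6.56 and 8.14 against 12.1 and 8.46), F3 (45.1 and 52.2 against 52.5 and 55.6) and Axl (0.737 and 0.880 against 1.39 and 1.36). Within single clusters Axl was higher without overlap in 8 of 10, Ccn2 in 5, F3 in 3, Crim1 in 2, and Ccn1 and Myof in 1 each. Among the 9840 genes of at least 5 CPM, a level that Axl itself does not reach, 0.874% had a count of 8 or more, 9.16% of 5 or more and 70.3% of at least 1.

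The log2 folds of the Hippo kinases and the genes upstream of them ran from -0.28 to 0.20. Of 33 listed genes 30 were tested, 9 were higher without overlap, 6 lower and 15 overlapping, against the 38% of all genes without overlap, and the median log2 fold was 0.04. None passed the adjusted test with DESeq2 or with edgeR without a replicate term, and 2 had an unadjusted p under 0.05. Lats1 was 48.6 and 47.9 against 49.9 and 49.3 CPM, and Lats2, itself a TEAD target, 26.0 and 25.6 against 29.7 and 27.8 (log2 fold 0.16 ± 0.07, edgeR adjusted p = 0.715). The largest differences were Limd1, an Ajuba-family LIM protein, at 47.3 and 50.6 against 41.0 and 39.6 (-0.28 ± 0.07, edgeR adjusted p = 0.680), and Sav1, the scaffold of the upstream kinases, at 51.1 and 46.8 against 56.2 in both nanocapsule libraries (0.20 ± 0.07, edgeR adjusted p = 0.685). Both were singled out once their values were known. The most abundant genes of this list, Map4k4, Taok1, Amotl1 and Fat1, had log2 folds of 0.06, 0.04, 0.12 and 0.08.

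**Figure D4:**
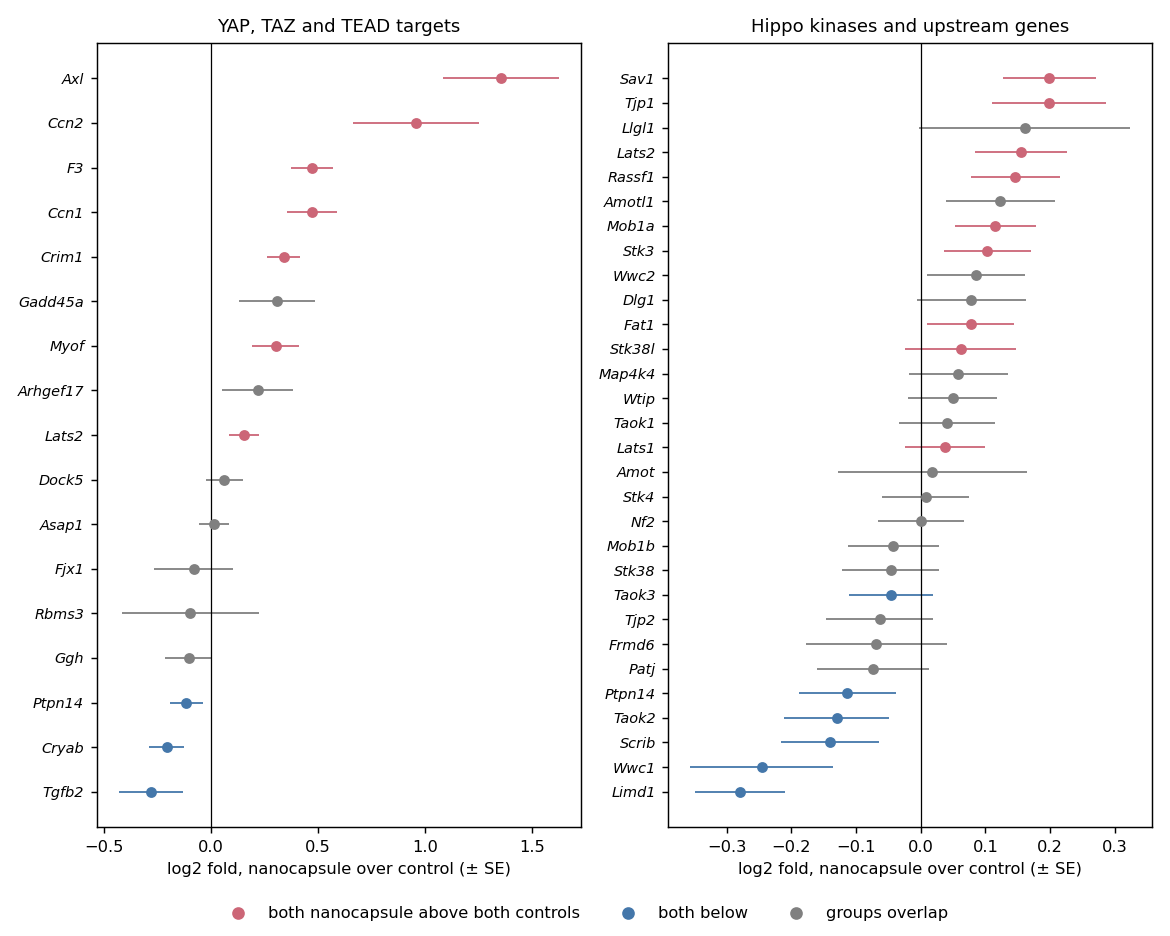
Log2 fold of nanocapsule over control, with its standard error, for tested genes of the target list (left) and of the kinase and upstream list (right) in melanocytic tumour-like cells, coloured by whether the groups overlap; Nt5e, with a standard error of 1.21, is left out, and Lats2 and Ptpn14 are in both lists. Targets reach 1.36 (Axl), while kinases and upstream genes lie between -0.28 and 0.20 on a narrower axis.

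Outside the tumour cells the members differed between the named classes. Classes were named from markers among 9548 cells with at least 1500 UMIs, a wider set that holds more of the small immune cells. Another 1753 of these cells stayed unnamed and are left out below. They had a median of 3927 UMIs, Vgll3 at 38.8 ± 8.5 CPM and the pigment gene Dct at 35.8% of its tumour-like level. Vgll3 was 44.4 ± 11.9 CPM in the tumour-like class and 51.9 ± 41.3 in 48 fibroblast-like cells, which do not differ beyond their spread. The fibroblast-like value rests on 51 UMIs, with 34.9 and 109 in the controls and 12.4 and 51.1 in the nanocapsule libraries, where the class has 5 cells each. Dct, a pigment enzyme of the tumour cells, was at 19.4% of its tumour-like level in these cells and varied from 12.4 to 1699 between libraries, and its part in the Vgll3 value was not tested. No Vgll3 UMI was found in 216 T-like, 157 B-like or 29 neutrophil-like cells. The T-like class was not split from natural killer cells: at a finer clustering 162 cells were named T-like and 54 natural-killer-like. Taken as 3 counts of the total, a count of 0 allows up to 1.39% of T-like and 1.91% of B-like cells with a UMI.

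Vgll4 was spread over more classes than Vgll3. It was the one member plentiful in lymphoid cells, at 160 ± 34 CPM in T-like and 99.4 ± 25.0 in B-like cells. The tumour-like level was 87.3 ± 4.9, and the T-like class includes natural-killer-like cells. In 34 endothelial-like cells it was 160 ± 42, and in 48 fibroblast-like cells 67.8 ± 14.2. The T-like values were 151 and 210 in the controls and 136 and 145 with nanocapsules, from 13 to 105 UMIs per library, and lay above the tumour-like level in all 4 libraries. With cells thinned to 1500 UMIs, 22.2% of T-like and 13.3% of tumour-like cells held a Vgll4 UMI. Its TEAD partners were all but missing there: 216 T-like cells held 2 UMIs of Tead1, 1 of Tead2 and 0 of Tead4, with 2 each of Yap1 and Wwtr1.

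Wwtr1 was highest in the endothelial-like class. It reached 352 ± 76 CPM in 34 endothelial-like cells, 496% of the tumour-like level, at 440 and 361 in the controls and 253 and 353 with nanocapsules. The class has 2 to 22 cells per library. Yap1 was not high there, at 27.8 ± 13.0 against 47.1 ± 3.1 in tumour-like cells. Tead1 was 151 ± 51 in fibroblast-like and 126 ± 112 in endothelial-like cells against 73.9 ± 4.9 in tumour-like ones. The endothelial value rests mostly on 4 cells of Nanocapsule 1, at 293, against 60.7 to 80.2 in the other libraries. Dct in those 4 cells was 2054 CPM, against 28.3 to 45.5 in the other libraries, and its part in the Tead1 value was not tested. Amotl2 was 68.4 ± 17.4 in endothelial-like cells against 29.3 ± 3.5 in tumour-like ones.

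**Figure D5:**
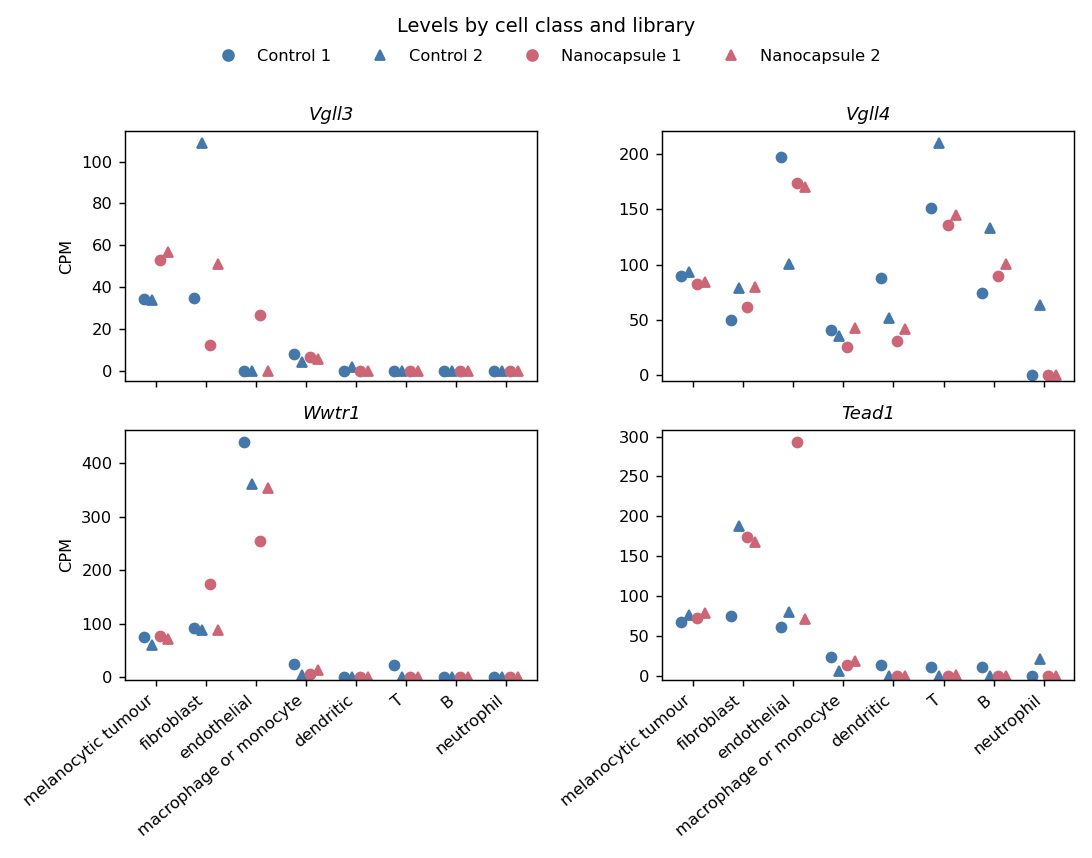
Vgll3, Vgll4, Wwtr1 and Tead1 in 8 named cell classes, in CPM of the class, 1 point per library, with the unnamed cells left out. Vgll3 lies at 0 in T-like, B-like and neutrophil-like cells, Vgll4 is high in T-like and endothelial-like cells (mean 160 in each) and Wwtr1 in endothelial-like cells (mean 352).

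In macrophage-like cells most members stood at a share of their tumour-like level close to that of a pigment gene. Vgll3 was 6.04 ± 1.49 CPM in 490 cells, 13.6% of the tumour-like level, and Yap1, Wwtr1, Tead1, Tead2, Tead4, Amotl2 and Ajuba were at 16.3 to 26.4% of theirs. Dct, which macrophages should lack, stood at 22.5% of its tumour-like level in the same cells. Vgll4 was the exception, at 36.2 ± 7.5 or 41.5%. The 7 members tested there had overlapping groups, against 27.3% of 9550 genes without overlap, and Tead4 and Ajuba did not pass the filter on low counts. Vgll3 was 7.66 and 4.13 in the controls and 7.06 and 5.63 with nanocapsules (log2 fold 0.10 ± 0.54).

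Markers of other cell types were summed in the same tumour-like cells. Among the named classes Vgll3 was also high in fibroblast-like cells. The fibroblast list summed to 83.5 and 82.7 CPM in the controls and 75.4 and 74.8 with nanocapsules. Of its 8 genes 1 was higher in both nanocapsule libraries and none was at 0. Nearly all of that sum was Fbln1, at 81.4 and 80.5 against 73.4 and 72.7, while Pdgfrb was 1.19 to 1.28 and the other 6 genes were each under 0.3. Of the 16 lists of other cell types, 1 was higher without overlap in the nanocapsule libraries, the plasmacytoid dendritic list, at 142 and 169 against 191 and 251 (2 of 5 genes). Its part in the Vgll3 difference was not tested. Of its genes Bst2 (87.6 and 108 against 133 and 188) and Cox6a2 (1.02 and 1.18 against 1.57 and 2.00) were higher, Tcf4 and Ccr9 overlapped, and Siglech was 0.127 and 0 in the controls and 0 in both nanocapsule libraries. In tumour-like cells with no UMI of the 11 immune marker genes the log2 fold of Vgll3 was 0.77. The 11 include Cd74, so interferon-like tumour cells with a Cd74 UMI are left out there too. Doublets were not removed.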

How the data were processed

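The 4 libraries of single-cell RNA (10x 3′ v2) comprise 2 per group, grouped by their titles. The authors deposited raw UMI counts per gene and barcode, mapped to mm10 with Cell Ranger, version 2.1.1 per the submitters' processing notes and 4 per the file headers. Cells were barcodes above 1/10 of the 99th percentile of the 3000 largest (8762 to 16256 UMIs), with at least 500 UMIs, 200 genes and at most 20% mitochondrial counts. Classes used at least 1500 UMIs. Clusters (scanpy 1.11.5, 2000 variable genes, 30 components, 15 neighbours, Leiden resolution 1, no integration) were named from marker lists, and doublets were not removed. Counts were summed per library and tested with edgeR 4.0.16 (TMM, filterByExpr, quasi-likelihood, Benjamini-Hochberg over all genes, 0.05) or, as an alternative, DESeq2 1.42.0. A standard error is the log2 fold divided by the root of F. Correlations used log2 of CPM plus 1, over sums of at least 20 cells, for genes of at least 5 CPM. Named besides the 9 members were Tead3, Lats1, Lats2, Ccn1, Ccn2, Ankrd1, the 4 most abundant genes of a list without calls and the 5 genes most like Vgll3. The members and lists were chosen with earlier results of these data known. The alternatives were other filters, scalings, tests, cell limits and resolutions, each library left out, a replicate block, and subsets of tumour cells. Depth was 98943390 to 140491491 UMIs per library, and binomial intervals cover counting error only. The replicate numbers are shared by the groups, but no label says that they pair libraries.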

Additional observations from a re-analysis of the deposited data

Results flagged for a closer look

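Barcodes with at most 100 UMIs, which the comparisons left out, held Vgll3 at 41.2 and 50.6 CPM in the controls and 64.5 and 66.5 in the nanocapsule libraries, a log2 ratio of the means of 0.51. Wwtr1 (log2 ratio 0.36) and Ajuba (0.29) were also higher there in each nanocapsule library than in either control. They drew attention because the signal lies outside the called cells and above its level in the controls. These barcodes belong to the same libraries as the called cells, so they add no independent evidence on Vgll3. Ajuba rests on 36 to 42 UMIs per library. Tead2 (-0.27) and Tead4 (-0.28) were lower there in each nanocapsule library, and the other 4 members overlapped. Over 9854 genes of at least 5 CPM in these barcodes, 7.55% were higher without overlap and 36.8% lower.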

How the results depend on the processing

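The log2 fold of Vgll3 in tumour-like cells stayed positive under all 15 alternatives, which reuse the libraries by which the gene was chosen. With its groups apart, leaving a library out could hardly change the sign, so nothing is read from that sign. The fold was 0.47 without the hypoxic-like clusters and 0.50 at equal cluster makeup, both chosen after seeing the data. It was 0.77 in cells without an immune marker UMI, and 0.64 to 0.74 with each library left out. The sign of the smaller folds changed under 3 alternatives for Yap1, 2 for Wwtr1, 2 for Amotl2 and 1 for Tead4. Without Control 1 the fold of Wwtr1 was 0.35, and without Nanocapsule 2 that of Ajuba was 0.02. At equal makeup Tead2 was at -0.02. Of the 5 genes most like Vgll3, 3 were among the first 5 when clusters were summed over libraries.

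The count of called genes in tumour-like cells, 0 with edgeR, was 7 with no filter on low counts, 92 with DESeq2, 6 outside the interferon-like clusters, 1 in cells without an immune marker UMI, and 6 to 69 with a library left out (69 without Control 1, 43 without Nanocapsule 1). The targets called were 3 with DESeq2 (F3, Ccn1, Axl) and 0 to 2 with a library left out (F3 and Ccn1 without Control 1). In macrophage-like cells the count was 36 with no filter, 2 with DESeq2 and 0 to 7 with a library left out. In all called cells it was 2, 169 and 1 to 67. At an unadjusted p under 0.05 edgeR had 1161, 200 and 1340 genes in the 3 fits. With the replicate number as a block, 390 genes were called in tumour-like cells, 5 of them targets (Ccn1, Ccn2, F3, Crim1, Axl) and 1 an upstream gene (Limd1), and 548 in all called cells. The labels do not say that the numbers pair libraries, and same-numbered libraries deviated together with r of 0.44 in tumour-like, 0.23 in macrophage-like and 0.53 in all called cells over 2 pairs. The cause of these changes was not tested. Clustering plays no part in all called cells, so its alternative gave no value there. With 2 libraries per group, values near the floor of detection, such as Tead4 in macrophage-like cells, cannot be compared.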
